A study of Mus musculus with 2 samples.

Results

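The laminin chains described here are 8 genes: the α chains Lama1, Lama2, Lama3, Lama4 and Lama5, the β chains Lamb1 and Lamb2, and the γ chain Lamc1. They were found by symbol among the 32285 genes of each library, and all 8 were present in both. They are described across the types of nuclei in the developing mouse kidney, which were named from marker genes outside the list, and at both ages of the study.

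Laminins are secreted as trimers of an α, a β and a γ chain and polymerise into the sheet on which a basement membrane is built. The α chain carries most of the binding sites for integrins and dystroglycan, the cell surface receptors that tie a cell to its basement membrane. In the kidney, the trimers change as nephrons mature: the early glomerular basement membrane holds the α1 and β1 chains, and the mature one holds the α5 and β2 chains, whose loss in people and mice causes kidney disease.

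Single-nucleus RNA sequencing was performed on whole kidneys, with 1 library at the late embryonic stage E18.5 and 1 at postnatal day 3 (P3), each from pooled kidneys of male and female mice. The E18.5 mice carried the genotype Mycf/f;Mycnf/f (no Cre) on a mixed background, so that Myc and Mycn were flanked by recombination sites but not deleted. The P3 mice were Wild type, on C57BL/6J by their label, whereas the methods of the study give a mixed background for both ages. Age, genotype, labelled background and library thus cannot be told apart, and with 1 library per age no difference between the ages could be tested. Of 21600 barcodes at E18.5 and 12216 at P3, 17776 and 9788 nuclei were used after quality limits and removal of called doublets. They held 56415055 and 46246564 unique molecular identifiers (UMIs), with medians of 2917.5 and 4054 UMIs per nucleus. The libraries shared 69 barcodes. Levels are UMIs of a gene per 1000000 UMIs of the same nuclei (CPM), intervals are 95% and exact, and they cover counting error only.

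Nuclei were grouped by clustering in which neither the laminin chains nor 21 other basement membrane and receptor genes took part. A cluster was named only when it raised at least 3 markers of a type, and each name stands for nuclei like that type. The podocyte clusters raised up to 10 of 10 markers at both ages, the endothelial clusters up to 11 of 11, and the proximal tubule clusters up to 10 of 11. Other names rested on fewer markers. An early nephron cluster led by Grid1 at P3 raised 3, and the interstitial clusters led by Gria1 raised 4 at E18.5 and 3 at P3. Podocytes, the cells that cover the glomerular capillaries, numbered 769 at E18.5 and 209 at P3. The interstitium was the largest type, with 4288 and 2692 nuclei. A nephron progenitor type was named only at E18.5 (2853 nuclei) and an early nephron type only at P3 (392 nuclei). Nuclei in unnamed clusters made up 31.7% at E18.5 and 32.8% at P3. Among these, 1 shallow cluster per age with raised hemoglobin transcripts, of 2835 and 1621 nuclei, held 130 and 293 CPM of Lama2, and all chains but Lamb2 at E18.5 (42.1) lay between their extremes in the named types. Free RNA can give UMIs of a gene in nuclei that do not express it, so low levels are set beside those of leukocytes, which are not known for making a basement membrane.

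The 8 genes differ in length more than in transcript size, which limits comparison between them. On mm10, Lama2 spans 639.723 kb of chromosome 10 (26980036 to 27619758, minus strand), whereas Lamb2 spans 10.795 kb of chromosome 9 (108479736 to 108490530, plus strand). Lama1 lies on chromosome 17 (67697259 to 67822647), Lama4 on chromosome 10 (38965515 to 39110188), Lama5 on chromosome 2 (180176373 to 180225859), Lamb1 on chromosome 12 (31265234 to 31329644) and Lamc1 on chromosome 1 (153218922 to 153332786). Their exons together cover from 6.082 kb in Lamb2 to 16.338 kb in Lama2.

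The promoters of Lama5, Lamb1 and Lamb2 are shown because these chains, which distinguish early from mature glomerular laminin, differed between podocyte clusters. Bases are 5′ to 3′ on the strand of the gene, taken from RefSeq on GRCm38.p6 and ending before the first annotated transcript of each gene, and capitals mark GC boxes (GGGCGG, or CCGCCC on the other strand).
Lama5, chr2:180225860-180226109, minus strand: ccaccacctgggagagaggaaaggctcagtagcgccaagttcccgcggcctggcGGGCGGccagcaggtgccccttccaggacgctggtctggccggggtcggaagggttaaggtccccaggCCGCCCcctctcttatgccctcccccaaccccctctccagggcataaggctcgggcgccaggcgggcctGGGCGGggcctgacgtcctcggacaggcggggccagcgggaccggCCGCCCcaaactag
Lamb1, chr12:31265043-31265233, plus strand: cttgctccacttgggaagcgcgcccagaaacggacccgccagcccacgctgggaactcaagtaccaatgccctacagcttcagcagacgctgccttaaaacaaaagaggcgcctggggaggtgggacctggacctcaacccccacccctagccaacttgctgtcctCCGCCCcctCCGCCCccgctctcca
Lamb2, chr9:108479612-108479735, plus strand: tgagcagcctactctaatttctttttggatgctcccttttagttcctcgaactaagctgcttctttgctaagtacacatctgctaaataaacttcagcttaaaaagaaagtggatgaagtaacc

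In the full 250 bases before the RefSeq start, the Lama5 promoter held 4 GC boxes and 72.4% G and C, the Lamb1 promoter 2 GC boxes and 62% G and C, and the Lamb2 promoter no GC box and 43.6% G and C. Of 32851 promoters of that length, 32.7% held at least 1 GC box and 3.34% held at least 4. The words TATAAA or TTTATA, searched on both strands, were in none of these 3 windows and in 12.4% of all. Of the 8 chains, 4 had an entry in the promoter table used here.

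Lama1, the α chain of embryonic epithelial basement membranes, was highest in epithelia of the growing nephron. At E18.5 it stood at 523 CPM in the loop of Henle (474 to 575), followed by 162 in the proximal tubule and 157 in the distal tubule, which did not differ beyond their intervals (ratio 1.04, 0.819 to 1.32). At P3 the early nephron led with 560 (531 to 590), ahead of the loop of Henle with 462 (432 to 494). Ureteric epithelium held 134 and 106, and intercalated cells 40.8 and 133. Apart from nephron progenitors with 75.4 at E18.5, all remaining types were low, between 16.3 and 42.4 at E18.5 and between 8.18 and 39.1 at P3, podocytes among them (39.9 and 26.1). Single clusters went higher, with 700 in an unnamed cluster of 1179 nuclei led by Grid1 at E18.5 and 887 in the cluster of 224 early nephron nuclei led by the same gene at P3, where Lama1 itself was the last of the 10 leading genes. The latter held 1135 of the 1400 Lama1 UMIs of the early nephron, a name it took on 3 raised markers. The former raised 4 early nephron and 4 proximal tubule markers. An unnamed cluster led by Nrcam held 570 at E18.5 and 476 at P3. The lead of the loop over the proximal tubule at E18.5, 3.22-fold, shrank to 1.12-fold with a graph of 20 neighbors, 1.22-fold with doublets kept and 1.20-fold with linear quality limits, and the order of early nephron and loop turned under the former pair of settings (0.837 and 0.882). With 20 neighbors, doublets kept and linear limits, a Grid1-led cluster at E18.5 was named proximal tubule (1466, 1114 and 732 nuclei), whereas that of the main setting was unnamed.

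Lama2, the α chain of muscle and stroma, was an interstitial transcript. It stood at 665 in the interstitium at E18.5 (651 to 679) and 1072 at P3 (1054 to 1090), which was 5.92-fold and 7.58-fold over all other nuclei of the library. Mural cells are the pericytes and smooth muscle of vessels. The nuclei named mural, 215 led by Dkk2 at E18.5 and 32 led by Ren1 at P3, followed with 434 and 237, and endothelium with 122 and 128. All other types held between 29.6 and 88.4 at E18.5 and between 36.8 and 83.3 at P3, a range that took in leukocytes with 62.5 and 70.3. After every nucleus was thinned to 1000 UMIs, 40.7% of interstitial nuclei held a Lama2 UMI at E18.5 and 56.4% at P3 (67.1% and 88.0% before thinning), against 9.15% and 8.33% of leukocytes (13.6% and 19.2%). Median depths before thinning were 2941 and 4052 UMIs in the interstitium and 2300.5 and 2870 in leukocytes. The interstitial clusters differed among themselves: at P3 a cluster led by Clca3a1 held 1509 CPM of Lama2, a cluster led by Zfp536 998 and a cluster led by Gria1 654. Outside the named types, 933 were found in an unnamed cluster of 443 nuclei led by Nrxn3 at E18.5 and 1378 in an unnamed cluster of 198 nuclei at P3. The 1.53-fold lead of interstitium over mural cells at E18.5 turned to 0.312 with 20 neighbors and 0.324 with Leiden clustering. Under those settings the mural name went to a stromal cluster of 2460 and 2325 nuclei, against 215 mural nuclei in the main setting. Under both, that cluster raised 6 mural markers: Pdgfrb, Notch3, Rgs5, Abcc9, Cspg4 and Kcnj8. Most of its nuclei were not among those named mural in the main setting, so nuclei with mural markers may lie in the interstitium of that setting. The turn is therefore between differently composed types.

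In podocytes and endothelium, the highest Lama2 levels were in a few deep clusters. A cluster of 42 podocyte nuclei at E18.5 with a median of 6355 UMIs held 488 CPM of Lama2, and the other podocyte clusters held 31.4 and 39.0. Endothelial clusters of 103 nuclei at E18.5 and 22 nuclei at P3, with medians of 5591 and 8532.5 UMIs, held 553 and 979, against 44.0 and 74.9 in the largest endothelial cluster. These clusters raised 10 of 10 podocyte markers and 10 and 11 of 11 endothelial markers. The endothelial cluster of 22 nuclei at P3 also raised 5 of 11 mural markers. The part of depth, or of RNA from other types, in the Lama2 levels of these clusters was not tested. Without these deep clusters, the ratio of P3 to E18.5 for Lama2 was 1.99 in podocytes and 1.68 in endothelium, against 0.821 and 1.05 with them.

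Lama3, the α chain of epidermal laminin, lies on chromosome 18. Its level in its leading type was the lowest of the α chains, as CPM and per kb of span or of exons. At E18.5 endothelium led with 77.6 CPM (69.3 to 86.6), followed by mural cells with 52.7, and the proximal tubule held 32.9. At P3 endothelium (90.4), urothelium (81.3) and proximal tubule (80.8) led, and neighbours in this order did not differ beyond their intervals. In the endothelium at P3, most Lama3 came from a single small cluster in which it was also a leading gene: 53 nuclei led by Sox17, a transcription factor of arterial endothelium, held 174 of 288 endothelial UMIs, at 859 CPM (736 to 997), while the largest endothelial cluster held 39.4. The Sox17-led cluster raised 10 endothelial markers but also 3 podocyte markers. Nebl, a leading gene of the podocyte clusters too, was among its leading genes. The part of RNA from other types in its levels was not tested. At E18.5 the largest endothelial cluster itself held 81.3, and no cluster had Sox17 among its leading genes. Proximal tubule Lama3 was likewise uneven at P3, with 99.9 in a cluster led by Slc5a12 and 24.6 in a cluster led by Aadat. Loop of Henle, distal tubule, ureteric epithelium and intercalated cells held between 3.14 and 7.94 at E18.5 and between 6.31 and 13.1 later, at P3, beside 16.3 and 5.21 in leukocytes (6 and 2 UMIs).

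Lama4, the α chain of vessel walls, was highest in endothelium and mural cells at both ages, beside stroma at E18.5 and the early nephron at P3. At E18.5, endothelium held 261 CPM, mural cells 257 and interstitium 241, neighbours in this order did not differ beyond their intervals, and nephron progenitors came next with 128. At P3, endothelium (358), mural cells (319) and the early nephron (303) formed the upper group, in which endothelium (338 to 379) and early nephron (281 to 325) had intervals that did not overlap, and the interstitium held 200. Within the early nephron, a cluster of 168 nuclei led by Rmst held 523, whereas the Grid1-led cluster held 92.2. An unnamed cluster of 830 nuclei led by Eya1 at P3 held 430. Tubule, ureteric, urothelial and intercalated nuclei held between 25.0 and 50.2 at E18.5 and between 17.5 and 35.7 at P3. Leukocytes held 21.8 and 31.3, from 8 and 12 UMIs. At E18.5, the distal tubule (47.7) and intercalated nuclei (50.2) lay furthest above them. Podocytes lay between these types and the leading ones with 101 and 100.3.

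Lama5, the α chain of mature epithelial and glomerular basement membranes, was highest in epithelia of the collecting system and in podocytes. Urothelium and ureteric epithelium did not differ beyond their intervals, with 133 and 125 CPM at E18.5 and 155 and 163 at P3, and podocytes followed with 92.3 (81.1 to 105) and 138 (116 to 163). Ureteric epithelium exceeded podocytes at E18.5 by 1.35-fold (1.16 to 1.58), whereas urothelium and podocytes did not differ beyond the interval at P3 (1.12, 0.853 to 1.46). Within the ureteric epithelium, the cluster led by Mgat4c at E18.5 held 157 and that led by Slc14a2 at P3 held 218, against 95.8 and 119 in the clusters with Nrg3 among their leading genes. The interstitium was lowest of the larger types, with 16.4 and 11.4, and leukocytes held 10.9 and 20.8. Across the named types, Lama1 and Lama5 therefore led in different epithelia, as the plot of levels by type shows.

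Lamb1, the β chain of most developing basement membranes, had the highest level of the 8 chains in its leading type, as CPM and per kb of span or of exons. It stood at 799 CPM in the loop of Henle at E18.5 (739 to 863) and 1231 at P3 (1182 to 1282), ahead of the distal tubule with 594 and 656. Both differences exceeded the intervals, at 1.35-fold (1.17 to 1.55) and 1.88-fold (1.70 to 2.08). After thinning, 53.7% and 60.3% of loop nuclei held a Lamb1 UMI (85.8% and 91.8% before), against 7.84% and 6.67% of leukocytes (14.9% and 26.7%). Median depths were 3436 and 4763 UMIs in the loop and 2300.5 and 2870 in leukocytes. The loop divided over Lama1 but not over Lamb1 at P3: a loop cluster of 67 nuclei led by Casr held 1139 CPM of Lamb1 but 58.9 CPM of Lama1, and the larger one 1253 and 555. Endothelium was among the lowest types, with 112 and 90.1, beside 68.0 and 128 in leukocytes (25 and 49 UMIs). At P3 it was thus below leukocytes.

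Lamb2, the β chain of the mature glomerular basement membrane and of vessels, was sparse everywhere. At E18.5 no named type reached 50 CPM, and interstitium (36.5), podocytes (34.7) and urothelium (30.4) led, and neighbours in this order did not differ beyond their intervals. At P3 mural cells (73.6, from 9 UMIs in 32 nuclei), urothelium (66.9) and podocytes (53.1) led in the same way, and podocytes exceeded the interstitium (29.8) by 1.78-fold (1.31 to 2.38). The proximal tubule held 20.8 and 9.46. After thinning, 4.29% of podocytes held a Lamb2 UMI at E18.5 and 7.18% at P3 (11.3% and 19.6% before), against 1.96% of leukocytes at E18.5 (3.25% before thinning). At P3, 0 of 120 thinned leukocytes held one, which allows a share of up to 3.03% by the exact binomial interval (0.833% before thinning). Podocytes had median depths of 3058 and 4478 UMIs.

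Lamc1, the γ chain shared by most laminins, was found in every type. At E18.5 ureteric epithelium led with 454 (434 to 475) over endothelium with 362, and no type fell under 122. At P3 the early nephron led with 583 (553 to 613), then endothelium with 440 and ureteric epithelium with 432, which did not differ beyond their intervals, and leukocytes were lowest with 62.5. The Rmst-led early nephron cluster held 784, the highest Lamc1 level of any cluster. With the largest cluster of each type alone, the order of early nephron and endothelium turned (0.845).

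**Figure D1:**
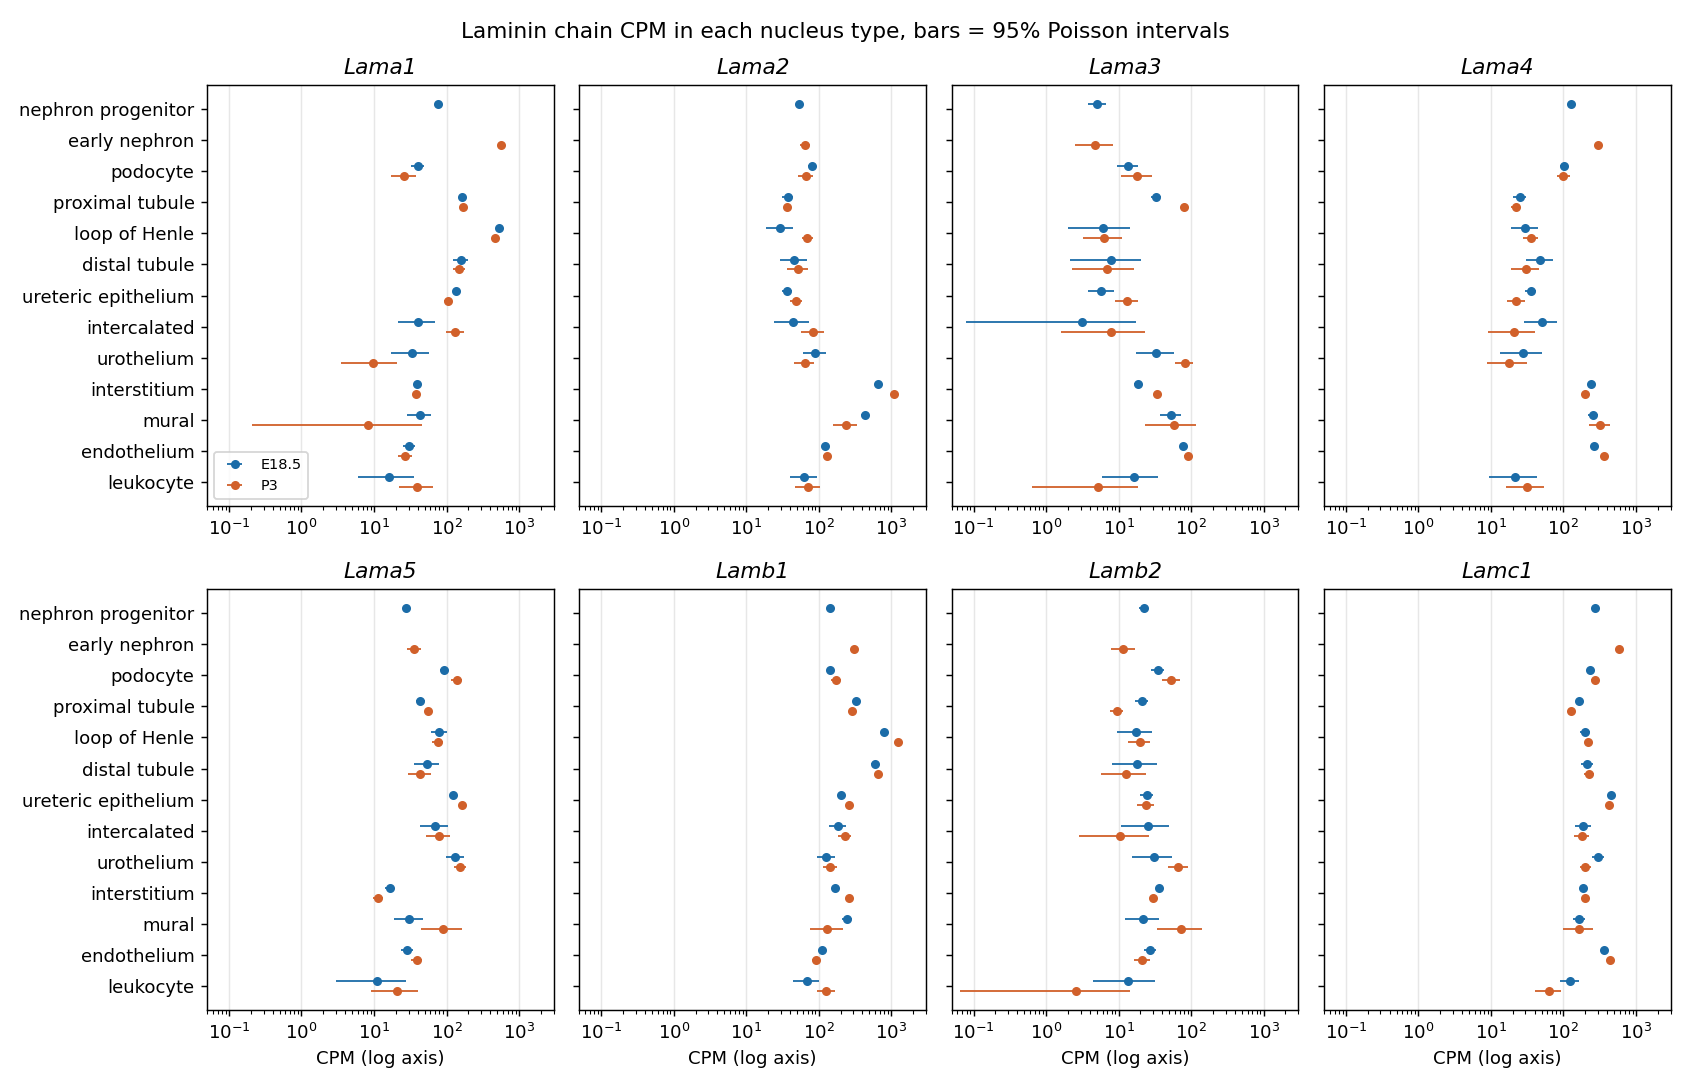
CPM (log axis) of the 8 laminin chains in each type of nucleus at E18.5 (blue) and P3 (orange), with bars for 95% Poisson intervals. Lama1 and Lamb1 peaked in the nephron epithelium, Lama2 in the interstitium (665 and 1072), Lama4 in endothelium and mural cells (261 and 257 at E18.5, 358 and 319 at P3), and Lama5 in urothelium, ureteric epithelium and podocytes, while Lamb2 did not exceed 73.6 CPM.

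The rule counted a gene with at least 50 CPM in a named type and at least 2-fold the CPM of all other nuclei. At E18.5, 6 of the 7 chains that reached the level passed in at least 1 type, all but Lamc1. Among all 8056 genes that reached the level, 49.1% passed. At P3 all 8 chains passed, against 59.2% of 7905 genes. Levels of different genes were also divided by gene length. With 3′ sequencing, UMIs of spliced transcripts need not rise with exon length, so the divided levels are not measures of abundance. Per kb of gene span, the level in the leading type at P3 was 19.1 for Lamb1, 6.82 for Lamb2, 5.12 for Lamc1, 4.46 for Lama1, 3.29 for Lama5, 2.47 for Lama4, 1.68 for Lama2 and 0.363 for Lama3. Per kb of exons, Lamb1 was again first with 124, but Lamc1 (70.4), Lama2 (65.6) and Lama1 (57.8) came next and Lamb2 (12.1) was near the end. Whether intronic reads were counted is not given in the sources used here. It therefore cannot be said which of these scales, or CPM not divided by length, applies. Lamb1 was first and Lama3 last on the scale of span at both ages (12.4 and 0.311 at E18.5).

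In podocytes the α, β and γ chains differed between clusters. At each age, 1 podocyte cluster had Ndnf among its 10 leading genes (the Ndnf cluster) and 1 had Nphs1 and Tdrd5 (the Tdrd5 cluster). The deep podocyte cluster of 42 nuclei at E18.5 also raised 10 podocyte markers and had Nphs1, but not Tdrd5 or Ndnf, among its leading genes. It is left out of this contrast, which therefore does not cover all podocytes at E18.5. The clusters were chosen by these genes, and the levels of podocyte markers in them are a description. In the Tdrd5 cluster Nphs1, which encodes nephrin of the slit diaphragm, was 4.05-fold higher at E18.5 and 2.50-fold at P3, whereas Wt1, which marks podocytes from their start, was 0.634-fold and 0.738-fold.

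Lama4 was 211 CPM in the Ndnf cluster of 179 nuclei and 48.0 in the Tdrd5 cluster of 548 nuclei at E18.5, a ratio of 0.228 (0.171 to 0.303). At P3 it was 182 in 72 nuclei and 52.4 in 137 nuclei, a ratio of 0.288 (0.184 to 0.443). Lamb1 was 234 and 113 at E18.5 (0.483, 0.387 to 0.606) and 340 and 73.1 at P3 (0.215, 0.150 to 0.304). Lamc1 was also lower in the Tdrd5 cluster, at 0.608-fold and 0.433-fold. The ratios of these 3 chains lay under 1 at both ages with their whole intervals.

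Lama5 and Lamb2 ran the other way. Lama5 was 46.1 in the Ndnf and 113 in the Tdrd5 cluster at E18.5, a ratio of 2.45 (1.63 to 3.85), and 92.4 and 165 at P3 (1.79, 1.20 to 2.72). Lamb2 had a ratio whose interval included 1 at E18.5, with 33.7 and 37.0 (1.10, 0.652 to 1.93), but was 13.6 and 76.3 at P3, a ratio of 5.61 (2.25 to 18.1) that rests on 5 and 48 UMIs. Lama1 was low in all 4 clusters, from 20.7 to 49.6, and did not differ beyond its interval at either age. Lama2 was 39.0 and 31.4 at E18.5 and 43.5 and 79.4 at P3 (1.83, 1.02 to 3.44). Lama3 was 10.6 and 13.2 at E18.5, with an interval of the ratio that included 1, and 40.8 and 4.77 at P3, from 15 and 3 UMIs.

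By the same limit of 2-fold, with at least 50 CPM in either cluster, 3 of 4 chains that reached the level passed at E18.5 (Lama4, Lama5 and Lamb1), against 11.2% of 4590 genes. At P3, 4 of 6 passed (Lama4, Lamb1, Lamb2 and Lamc1), against 20.2% of 4213 genes. Among the 21 other basement membrane and receptor genes, 3 of 13 passed at E18.5 and 7 of 13 at P3. Col4a3 and Col4a4, the collagen IV chains of the mature glomerular basement membrane, were 6.35-fold and 5.14-fold higher in the Tdrd5 cluster at E18.5 and 4.10-fold and 2.87-fold at P3. Bcam, which encodes a receptor for the α5 chain, was 2.11-fold and 2.52-fold higher. At P3, Itga3 (2.08-fold) and Dag1 (2.05-fold), which encode laminin receptors, were also higher, and Col4a2 (0.294-fold) and Itga6 (0.465-fold) were lower. The Ndnf cluster was not found with 20 neighbors or Leiden clustering at either age, nor with doublets kept at E18.5, so the contrast between the clusters has no value under those settings.

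**Figure D2:**
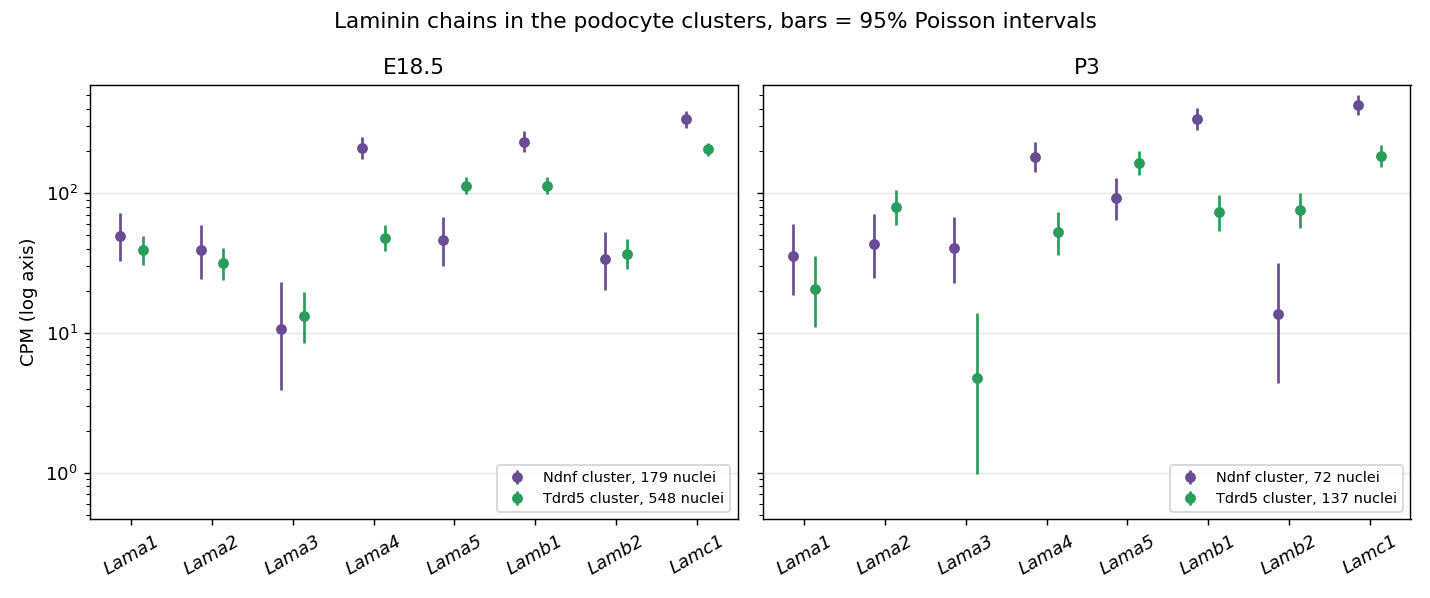
CPM (log axis) of the laminin chains in the Ndnf (purple) and Tdrd5 (green) podocyte clusters at E18.5 and P3, with bars for 95% Poisson intervals. Lama4, Lamb1 and Lamc1 were lower and Lama5 was higher in the Tdrd5 cluster at both ages, while Lamb2 was higher there at P3 only (76.3 against 13.6) and did not differ beyond its interval at E18.5. Whether the ages differ in this was not tested.

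Chains of the same kind were also compared as shares, in which the lengths of the genes are the same for every type. Lama5 made up 69.8% of Lama5 and Lama1 UMIs in podocytes at E18.5 (64.7% to 74.6%) and 84.1% at P3 (77.6% to 89.4%), which became 45.1% and 73.8% with doublets kept. In the proximal tubule the share was 21.2% and 24.9%, in the loop of Henle 13.1% and 14.0%, and in the early nephron at P3 5.98%. Only urothelium (80.0% and 94.2%) and, at P3, mural cells (91.7% of 12 UMIs) had a higher share than podocytes. Leukocytes held 40.0% and 34.8%, from 4 and 8 Lama5 UMIs. Lama1 in podocytes, 39.9 and 26.1 CPM, stood beside 16.3 and 39.1 in leukocytes (6 and 15 UMIs). At P3 the Lama1 part of the podocyte share was thus below the level in leukocytes. In the podocyte clusters at E18.5, the Lama5 share was 48.1% (34.3% to 62.2%) in the Ndnf and 74.3% (68.7% to 79.3%) in the Tdrd5 cluster, with intervals that did not overlap. The podocyte cluster of 42 nuclei held 66.7% (43.0% to 85.4%), from 14 Lama5 and 7 Lama1 UMIs, and its interval overlapped both. At P3 the share was 72.3% (57.4% to 84.4%) in the Ndnf and 88.9% (81.7% to 93.9%) in the Tdrd5 cluster, with intervals that overlapped.

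Lamb2 made up 19.5% of Lamb2 and Lamb1 UMIs in podocytes at E18.5 (16.0% to 23.4%) and 23.7% at P3 (18.3% to 29.8%). Endothelium held 19.4% and 18.9%, and the share was lowest in the loop of Henle, with 2.11% and 1.55%. At E18.5, podocytes therefore did not stand apart from endothelium, interstitium (17.7%) or urothelium (19.3%) by this share. At E18.5 the Tdrd5 podocytes held 24.6% (19.6% to 30.2%), against 12.6% (7.75% to 19.0%) in the Ndnf ones. The podocyte cluster of 42 nuclei held 12.5% (4.73% to 25.2%), from 6 Lamb2 and 42 Lamb1 UMIs. At P3 the shares were 51.1% (40.5% to 61.5%) in the Tdrd5 and 3.85% (1.26% to 8.75%) in the Ndnf podocytes. Lamb1 in the Tdrd5 podocytes at P3, 73.1 CPM, was below the 128 of leukocytes. The share in all podocytes thus depends on how many of them belong to each cluster, and at P3 it ranged from 20.2% to 51.1% over the settings tried.

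**Figure D3:**
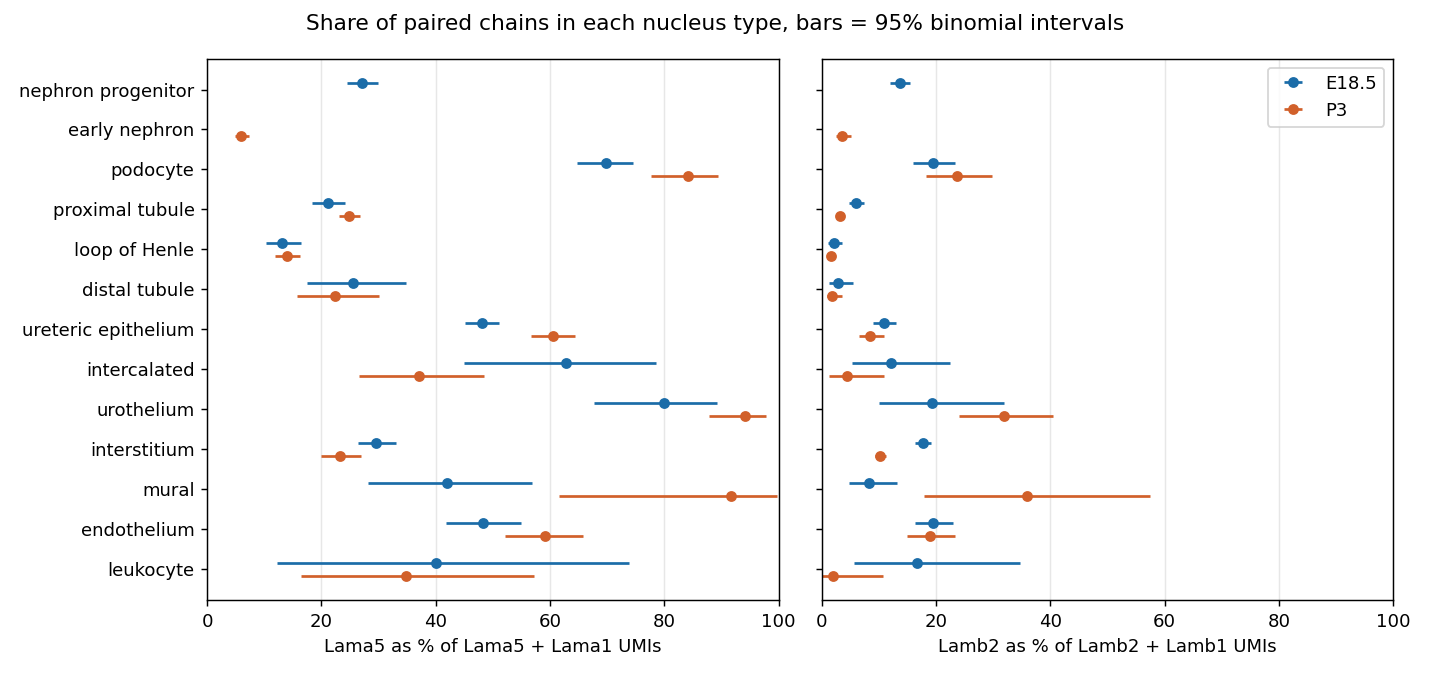
Lama5 as a percentage of Lama5 and Lama1 UMIs (left) and Lamb2 as a percentage of Lamb2 and Lamb1 UMIs (right) in each type at E18.5 (blue) and P3 (orange), with bars for 95% binomial intervals. The Lama5 share was 69.8% and 84.1% in podocytes and 13.1% and 14.0% in the loop of Henle, while the Lamb2 share was at most 36.0% (mural cells at P3).

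Whether chains occurred in the same podocyte nuclei could hardly be seen at this depth. In nuclei thinned to 1000 UMIs, 14 of 769 podocytes at E18.5 held both Lama4 and Lamb1, 2.0 times the number expected from independent detection (1.09 to 3.35). This ratio was 1.38 with thinning to 2000 UMIs and turned to 0.889 with doublets kept. The other 5 pairs at E18.5 and all 6 pairs at P3, among them Lama5 with Lamb2 (2 and 4 nuclei), had intervals that included 1.

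Between the ages, with the same limit of 2-fold and 50 CPM, 2 pairs of a chain and a type passed in the 8 types with at least 100 nuclei at each age. The number was 9 with doublets kept, 7 with 20 neighbors, 5 with the largest cluster of a type alone and 4 with thinning or with the lowest type subtracted. Lama3 in the proximal tubule went from 32.9 to 80.8, 2.45-fold (2.04 to 2.97), as 1 of 5 chains that reached the level there, and 15.3% of all genes passed. At P3 it was higher in the Slc5a12-led than in the Aadat-led cluster, and the latter and its match at E18.5, paired by shared leading genes (326 and 37 nuclei), held 24.6 and 25.2. Lama2 in the loop of Henle went from 29.6 to 69.4, 2.34-fold (1.51 to 3.79), as 1 of 5 chains, with 13.6% of genes passing, beside 62.5 and 70.3 in leukocytes.

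No chain passed in podocytes (0 of 6, against 11.8% of genes), distal tubule (0 of 5, 17.9%), ureteric epithelium (0 of 4, 13.1%), interstitium (0 of 4, 14.2%), endothelium (0 of 5, 12.0%) or leukocytes (0 of 3, 21.7%). Several ratios lay above or below 1 with their whole counting intervals. In the interstitium, Lama2 was 1.61-fold (1.57 to 1.66) and Lamb1 1.55-fold (1.47 to 1.63) at P3 relative to E18.5, and Lama4 was 0.831-fold. Lamb1 in the loop of Henle was 1.54-fold (1.41 to 1.68), and endothelial Lama4 and Lamc1 were 1.37-fold and 1.22-fold. A higher Lamb1 level at P3 was not particular to interstitium and loop. In leukocytes it was 1.88-fold (1.14 to 3.17), from 25 and 49 UMIs, and Lamc1 there was 0.511-fold (0.298 to 0.857). In podocytes, Lama5 was 1.5-fold (1.21 to 1.85) and Lamb2 1.53-fold (1.07 to 2.17). Types with fewer nuclei at either age had no background count, and pairs past the limit there are values only. In urothelium, Lama3 went from 33.1 to 81.3 and Lamb2 from 30.4 to 66.9, on 12 and 11 UMIs at E18.5. In mural cells, Lama5 went from 30.7 to 90.0 and Lamb2 from 21.9 to 73.6, on 11 and 9 UMIs at P3. In intercalated cells, Lama1 went from 40.8 to 133 and Lama4 from 50.2 to 20.8, the latter with an interval of the ratio that included 1.

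The ratios moved with gene span and with the clusters that made up a type. The ratio of all genes depended on gene span: its median on the log2 scale was -1.04 for 547 genes under 10 kb, -0.20 for 1760 genes of 10 to 50 kb, 0.14 for 2146 genes of 50 to 200 kb and 0.36 for 679 genes of at least 200 kb. Relative to genes of the same span class within the type, interstitial Lama2 was 1.24-fold and Lama2 in the loop 1.77-fold, under the limit. The chains within a share also differ in span, and the part of this in the difference of shares between the ages was not tested. Between clusters matched by at least 3 shared leading genes, Lama2 was 1.20-fold in the Zfp536-led interstitium (831 and 998) and 3.15-fold in the Gria1-led interstitium (208 and 654). The Gria1-led clusters raised different markers, with Foxd1 and Postn raised at E18.5 only and Tcf21 at P3 only. The nephron progenitor cluster at E18.5 was matched to the unnamed Eya1-led cluster at P3, and there Lama4 was 128 and 430, 3.36-fold (3.13 to 3.61). The E18.5 cluster raised 5 nephron progenitor markers and 1 early nephron marker, and the P3 cluster 4 and 6, so this pair may differ in cell state. In the Ndnf podocytes, Lamb1 was 1.45-fold (1.13 to 1.87) at P3, whereas in the Tdrd5 podocytes it was 0.646-fold (0.459 to 0.893) and Lamb2 2.06-fold (1.39 to 3.03). The genotype, labelled background and the counting release named in the matrix header also differed between the libraries and cannot be told apart from age.

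**Figure D4:**
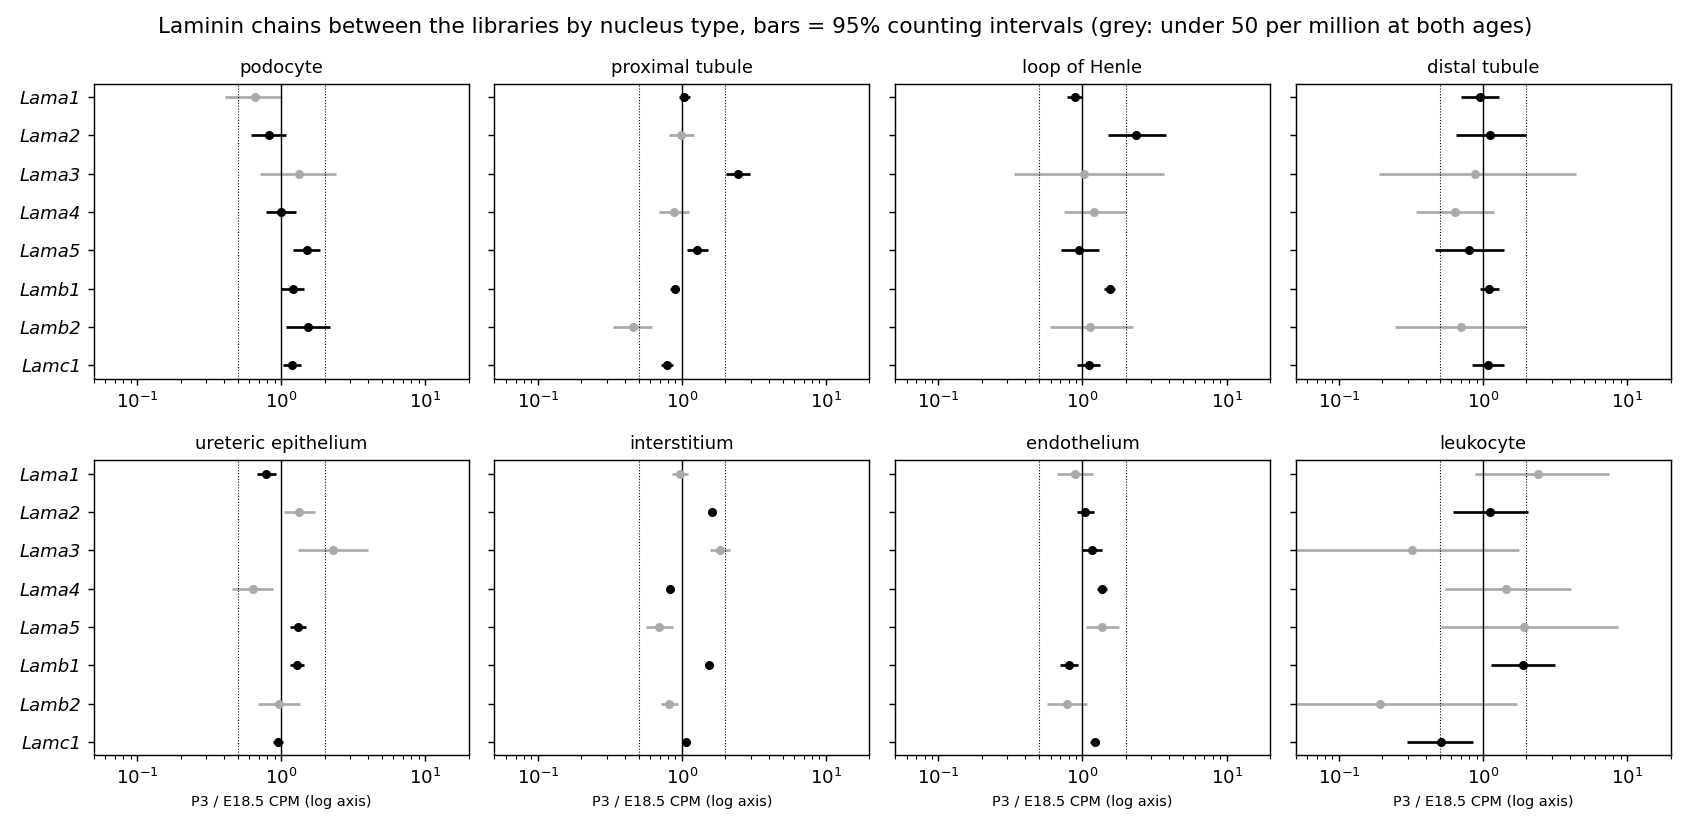
Ratio of CPM at P3 to those at E18.5 (log axis) for the 8 laminin chains in the 8 types with at least 100 nuclei at each age, with bars for 95% counting intervals, a solid line at 1 and dotted lines at the limit of 2-fold. Points in grey had under 50 CPM at both ages, and of the black points 2 lie past the limit in the clustering shown, Lama3 in the proximal tubule (2.45) and Lama2 in the loop of Henle (2.34).

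The partners and receptors of laminin in the same nuclei also differed by type. Of the 21 other genes, 12 of the 18 that reached 50 CPM passed the 2-fold rule in at least 1 type at E18.5, and 15 of 19 at P3, beside 49.1% and 59.2% of all genes. Of the laminin chains among them, Lamb3, a partner of Lama3 in the laminin of epidermis, reached 11 and 39.8 in urothelium, and Lamc3 did not exceed 23.7 in any type. Within podocytes, Lamc3 was 37.2 at E18.5 and 48.9 at P3 in the Ndnf clusters, against 3.86 and 6.35 in the Tdrd5 clusters, all under 50 CPM. Hspg2, which encodes perlecan, was highest in endothelium at both ages (234 and 339), where Lama4 led, and Nid1 in the interstitium (176 and 214). Ntn4, whose product binds the γ1 chain, was highest in the loop of Henle (207 and 124), where Lamb1 led. Its lead at P3 was small, with 115 in mural cells, from 14 UMIs, and 104 in the distal tubule. Of the receptors, Itga3 was highest in podocytes (133 and 220), Itga6 in the distal tubule (659 and 548), Itga7 in mural cells (23.4 and 73.6) and Itgb4 in urothelium (63.5 and 70.1).

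Over the 46 clusters of at least 50 nuclei from both libraries, each chain was compared with 9791 genes by Pearson's correlation of log2 levels, as a description. The clusters share libraries and depth, so no p-value is given. The closest gene was Mapk4 for Lama1 (0.888), Ddr2 for Lama2 (0.959), Jag2 for Lama3 (0.750), Ttc28 for Lama4 (0.859), Rhpn2 for Lama5 (0.784), Mok for Lamb1 (0.851), Anxa2 for Lamb2 (0.740) and Ranbp17 for Lamc1 (0.752). Next came Rab3ip for Lama1, Kcnt2 and Mill2 for Lama2, Gm33206 and Bmx for Lama3, Adgra2 and Jam3 for Lama4, Marveld2 and Mpp7 for Lama5, Stk32b and Dlec1 for Lamb1, Gpx8 and Cavin1 for Lamb2, and Mpzl1 and Srsf10 for Lamc1. Among the chains themselves, Lama1 and Lamb1 had the highest correlation (0.699), Lama2 and Lama4 followed (0.598), and Lama2 and Lama5 had the lowest (-0.646).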

How the data were processed

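Nuclear RNA of whole kidneys was measured by droplet-based 3′ sequencing in 1 library per age. The deposited values were raw UMI counts per gene and barcode made by the authors with Cell Ranger. The submitters' processing notes give version 5.0.1 and mm10 for both libraries, whereas the matrix headers name 7.0.0 (E18.5) and 5.0.1 (P3). Intron counting and the annotation used for it are not given in the sources used here. Samples were grouped by their labelled age.

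Barcodes under the median of log UMIs or log genes by over 3 median absolute deviations, or as far above that of the mitochondrial share (and by at least 0.5 percentage points), were removed, with no upper limit on UMIs or genes, which left 21270 and 11765 nuclei. Scrublet, run through scanpy 1.11.5 with an assumed doublet rate of 0.1, called 3494 (16.4%) and 1977 (16.8%) of these as doublets, which were left out. Each library was clustered with scran 1.30.0, scater 1.30.1, bluster 1.12.0 and igraph 2.1.4 in R 4.3.3, on 2000 variable genes, 50 components and 10 neighbors. A cluster was named when at least 3 markers of a type were raised and no rival type scored 0.8 of its share, with rules on leading markers of other types and on hemoglobin transcripts added after the clusters were seen. Interstitium and mural did not count as rivals of each other. Between them, the mural name needed at least 3 raised mural markers and a mural marker among the leading genes. Names were rebuilt here and may differ from those of the study. Counts were summed per type and divided by the UMIs of the same nuclei. Intervals (95%) are exact Poisson, binomial or conditional binomial and cover counting error only. With 1 library per age there was no test. A gene was called at 2-fold of the CPM with nothing added, with at least 50 in the type or, between 2 groups, in either group. For log2 values and the folds of markers and leading genes, 10 CPM were added. Detection was compared after thinning to 1000 UMIs. Genes named beside the chains came from the list of 21 basement membrane and receptor genes, from the leading genes of clusters and, for likeness, were the 3 with the highest correlation per chain. Some of these genes and their values are not reported here. The members and lists were chosen with earlier results of these data known. Gene positions came from GENCODE on GRCm38, in which 32158 of the identifiers (99.6%) were found. Promoters came from RefSeq on GRCm38.p6, in which 4 of the 8 chains were matched. Sums and intervals were made with pandas 2.3.3, scipy 1.17.1 and numpy 2.4.6 under Python 3.11.15, plots with matplotlib 3.10.9, and the counting steps were tested on simulated data. Alternatives were doublets kept, 20 neighbors, Leiden clustering, linear quality limits, equal weight per nucleus, thinning, subtraction of the lowest type, the largest cluster alone, deep clusters left out, other centring and 1.5-fold.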

Additional observations from a re-analysis of the deposited data

How the results depend on the processing

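No paired analysis was possible because only 1 library was made per age, and leaving out a library would leave an age with none. No called level turned its direction under an alternative, whereas 1 co-detection ratio and some orders of types did, the latter as given for Lama1, Lama2 and Lamc1. Of the alternative values of the main counts, shares and co-detection ratios, 81 stayed within the limit for the result and 17 moved, and of those for single chains 921 stayed and 180 moved. The limit was 1.5-fold for counts and the main counting interval for other values, so sparse chains with wide intervals stay easily. Some alternatives left the nuclei of a type unchanged, such as the largest cluster alone in types of 1 cluster. At P3 the linear limits kept 11765 nuclei, as many as the main ones. These numbers are therefore no measure of robustness. The number of pairs of chain and type called between the ages, 2, became 9 with doublets kept, 7 with 20 neighbors, 4 with thinning, 4 with the lowest type subtracted, 5 with the largest cluster of a type alone and 8 at 1.5-fold. In podocytes at E18.5, the Lama5 share of 69.8% became 45.1% with doublets kept and 77.5% with the lowest type subtracted, and the Lamb2 share of 19.5% became 24.6% with the largest cluster alone. At P3, the Lama5 share of 84.1% became 73.8% with doublets kept, and the Lamb2 share of 23.7% became 45.1% with 20 neighbors, 31.5% with Leiden clustering, 30.4% with thinning, 38.3% with the lowest type subtracted and 51.1% with the largest cluster alone. With doublets kept, the co-detection ratio of Lama4 and Lamb1 at E18.5 went from 2.0 to 0.889 and that of Lamb1 and Lamb2 at P3 from 0.435 to 0. The cause of these shifts was not tested. Lama3 in the proximal tubule ranged from 2.13-fold to 4.37-fold over the alternatives. Settings that lost a type or the Ndnf podocyte cluster gave no value for it. Omission of deep clusters and centring on genes of the same span were chosen after seeing the data, as was the contrast of podocyte clusters. Depth limits Lamb2 and co-detection, and the Lamb2 contrast of podocyte clusters at P3 rests on 5 and 48 UMIs.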
